A study of Homo sapiens with 9 samples.

Results

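The genes of cellular copper transport were followed through oncogene-induced senescence and through depletion of ARID1B, a protein of the chromatin remodeller SWI/SNF. The 7 genes are the transporters SLC31A1 and SLC31A2, the pumps ATP7A and ATP7B, and the copper chaperones ATOX1, CCS and COX17. Each was looked up among the probe sets that carry exactly 1 gene symbol, and 6 of the 7 had such a probe set, out of 18417 genes measured in this way. COX17 had none, because both probe sets that name it also name POPDC2. Its own level is therefore not given here.

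Copper crosses the plasma membrane as the reduced ion through SLC31A1 (CTR1), whereas the related SLC31A2 (CTR2) lies mainly on endosomes and lysosomes. Inside the cell, ATOX1 carries copper to ATP7A and ATP7B, which pump it into the trans-Golgi network or out of the cell, CCS loads superoxide dismutase SOD1, and COX17 serves cytochrome c oxidase in mitochondria. In fibroblasts, the copper that ATP7A pumps into the secretory pathway is used by lysyl oxidases, the enzymes that cross-link collagen and elastin.

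The cells were IMR90 human lung fibroblasts (spelled IRM90 in the labels) that all carried ER:RAS, an oncogenic RAS held inactive until 4-hydroxytamoxifen (4OHT) is added. Knockdown cells (shARID1B+4OHT) expressed a short hairpin RNA against ARID1B and received 4OHT, senescent cells (vector+4OHT) had empty vector with 4OHT, and non-senescent cells (vector-4OHT) had empty vector without it. RNA was taken 6 days after 100 nM 4OHT from cells grown for 7 days, and each group had 3 Affymetrix arrays. No group received a control hairpin, no group combined shARID1B with the absence of 4OHT, and none received 4OHT without ER:RAS. The labels do not say which hairpin was used, nor that the arrays of a group came from separate cultures, and p-values here cover only the spread among the samples given, although a figure legend of the study calls them biological replicates.

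All values are on the log2 scale after RMA, so that a difference of 1 is a doubling, and n = 3 arrays per group throughout. Array medians lay between 6.70 and 6.79, the median over all probe sets was 6.75, and arrays of 1 group correlated at 0.9955 to 0.9972 across probe sets. Signal at or below that median is called dim here. ARID1B read 8.07, 7.96 and 8.13 on the knockdown arrays, 8.63, 8.96 and 8.77 on the senescent arrays and 8.93, 8.85 and 8.94 on the non-senescent arrays. The knockdown arrays were thus the lowest, as their label says, with a change of -0.73 from senescent cells (adjusted p = 0.000179). All 10 fibroblast markers were above the median in every group, whereas 6 of 8 leukocyte markers and 6 of 9 endothelial markers were below it. The epithelial markers were mixed, with 3 of 9 below it in knockdown cells and 4 of 9 in each of the other groups. Of the fibroblast markers, 8 of 10 were called lower in senescence and 0 higher (adjusted p under 0.05, as defined below). Over all genes 17.6% were called lower and 14.9% higher. With knockdown 2 of the 10 were called lower and 2 higher, against 6.09% and 9.63% of all genes. The logarithm of the summed fibroblast marker signal was 14.87 to 14.91 in knockdown cells, 14.84 to 14.90 in senescent cells and 15.12 to 15.26 in non-senescent cells. That of the leukocyte markers was 11.62 to 11.79 in knockdown cells, 11.35 to 11.44 in senescent cells and 11.12 to 11.25 in non-senescent cells. This sum was led by CD68, which averaged 11.49, 11.14 and 10.85 in these groups. The leukocyte list as a whole did not rise with knockdown, where 7 of its 8 markers changed below 0 and 1 above. In senescence 4 changed in each direction. The part of these marker differences in the results below was not tested.

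Senescent cells had more mRNA for both SLC31 transporters, for the pump ATP7A and for the chaperone ATOX1 than non-senescent cells. With the hairpin, SLC31A2 and ATOX1 fell, whereas SLC31A1 and ATP7A stood at the level of senescent cells within their error. ATP7B differed between no groups by more than its spread, and CCS missed the threshold. Calls rest on an adjusted p under 0.05 from limma, with Benjamini-Hochberg adjustment over all 18417 genes. In senescence, 4 of the 6 measured genes were called higher and 0 lower, where 14.9% of all genes were called higher and 17.6% lower (32.6% in either direction). In knockdown cells against senescent cells, 0 of 6 were called higher and 2 lower, where 9.63% of all genes were called higher and 6.09% lower (15.7% in either direction). In knockdown cells against non-senescent cells, 2 of 6 were called higher and 0 lower, with 15.6% and 15.9% over all genes (31.5% in either direction). By arrays that did not overlap, 5 of 6 were higher in senescence and 0 lower (18.3% and 21.7% over all genes), and 0 were higher and 2 lower with knockdown (17.7% and 14.8%). Between knockdown and non-senescent cells, 3 were higher and 1 lower by that measure (20.8% and 25.1%). The median change of the 6 genes was 0.29 in senescence, -0.02 with knockdown and 0.10 between knockdown and non-senescent cells, where all genes had medians of -0.01, -0.02 and -0.03. The senescent arrays enter both the senescence and the knockdown comparison, so a high value there raises the one and lowers the other. SLC31A2 is among the genes counted as higher in senescence and as lower with knockdown. The study chose it in part on its expression profiling, so these counts are not independent of that choice.

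**Figure D1:**
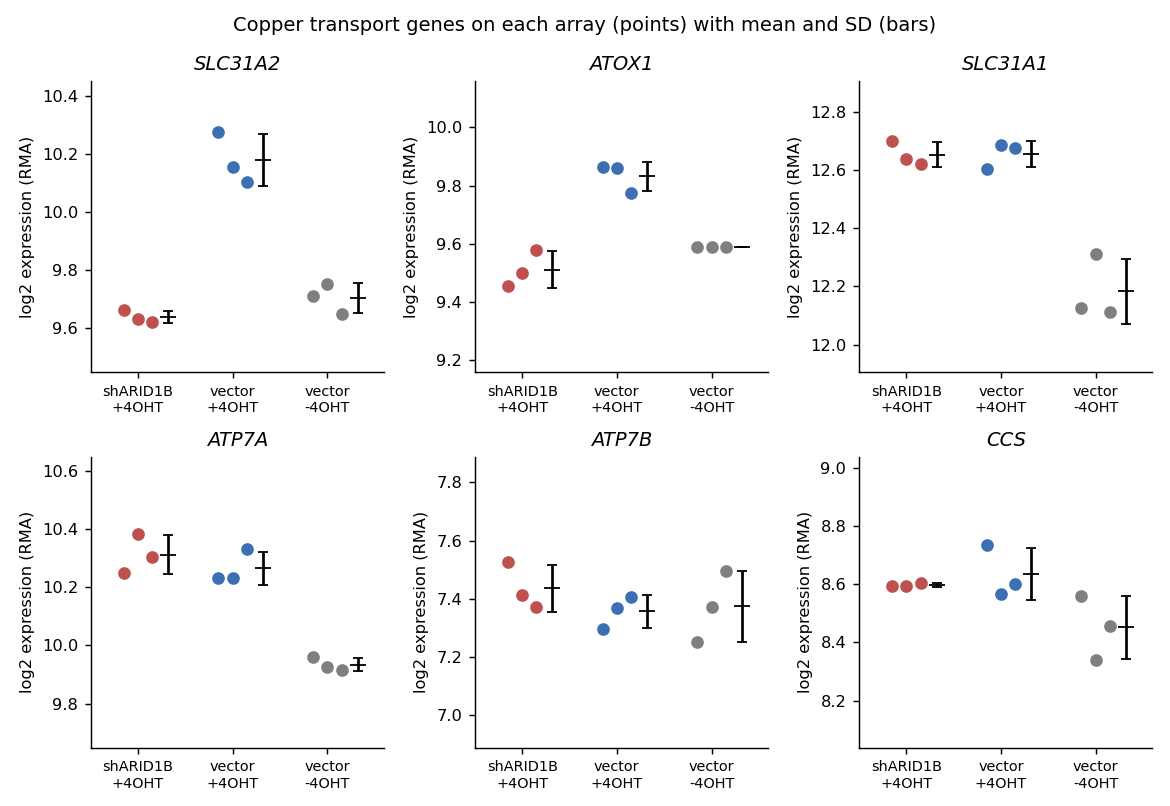
Log2 expression after RMA (vertical axis) of the 6 measured copper transport genes, with 1 point per array and the mean and SD of each group beside its points; every panel spans 1 log2 unit around its own values. SLC31A2 and ATOX1 are highest on the 3 vector+4OHT arrays, whereas SLC31A1 and ATP7A are high on all 6 arrays with 4OHT.

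SLC31A2 encodes the intracellular member of the SLC31 family. It read 9.66, 9.63 and 9.62 on the knockdown arrays, 10.28, 10.15 and 10.10 on the senescent arrays, and 9.71, 9.75 and 9.65 on the non-senescent arrays. All 3 senescent arrays were above all 6 others, and the knockdown and non-senescent arrays overlapped. The rise in senescence was 0.47 (SE 0.056, 95% interval 0.35 to 0.60), or 1.39-fold, with an adjusted p of 6.8e-05. The fall with knockdown was a log2 change of -0.54 (interval -0.66 to -0.41), a level 31.1% lower (adjusted p = 0.000131), and 97.4% of all genes changed by less in either direction. Knockdown and non-senescent cells differed by -0.06 (interval -0.19 to 0.06, adjusted p = 0.436). The order was thus senescent cells first, with the other groups not separable beyond their spread. In RNA from whole cultures, fewer cells of a type and less RNA per cell cannot be told apart. SLC31A2 is among the genes the study followed up, after a choice that rested in part on its expression profiling, so its direction here is not independent evidence. The study has other evidence on this gene. It came out of an shRNA screen for bypass of senescence, and in mouse livers oncogenic Nras raised Slc31a2 mRNA in a way that depended on Arid1b.

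ATOX1, the cytosolic chaperone that hands copper to the pumps, had the same order of groups at a smaller size. Its values were 9.46, 9.50 and 9.58 on the knockdown arrays and 9.86, 9.86 and 9.77 on the senescent arrays. All 3 non-senescent arrays read 9.59. The senescent arrays did not overlap with any other array, and the knockdown arrays all lay just under the non-senescent value. ATOX1 rose by 0.24 in senescence (SE 0.051, interval 0.13 to 0.35, 1.18-fold, adjusted p = 0.00339). With knockdown it fell by a log2 change of -0.32 (interval -0.43 to -0.21), a level 19.9% lower (adjusted p = 0.00179). Knockdown cells differed from non-senescent cells by -0.08 (adjusted p = 0.284). The identical values of 1 group lower the measured spread of ATOX1; it is 1 of 721 genes with such a tie, and the cause of the tie was not tested.

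SLC31A1, the importer at the cell surface, kept its higher level in the presence of the hairpin. It read 12.70, 12.64 and 12.62 on the knockdown arrays, 12.60, 12.69 and 12.67 on the senescent arrays, and 12.13, 12.31 and 12.11 on the non-senescent arrays. The 2 groups with 4OHT overlapped, and both lay above every array without 4OHT. The rise in senescence was 0.47 (SE 0.062, interval 0.33 to 0.61), or 1.39-fold (adjusted p = 0.000145), and the difference between knockdown and non-senescent cells was 0.47 as well (adjusted p = 0.000159). The change with knockdown was -0.0011 (interval -0.14 to 0.14, adjusted p = 0.994), and its sign turned when array medians were subtracted. The interval leaves room for changes of up to 0.14 in either direction and not for one of the size seen for SLC31A2.

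The same held for ATP7A, the pump that delivers copper to the secretory pathway in most tissues outside the liver. It read 10.25, 10.38 and 10.30 on the knockdown arrays, 10.23, 10.23 and 10.33 on the senescent arrays, and 9.96, 9.93 and 9.91 on the non-senescent arrays. Again both groups with 4OHT overlapped with each other and with no array of the third group. The rise in senescence was 0.33 (SE 0.053, interval 0.21 to 0.45), or 1.26-fold (adjusted p = 0.000555). The change with knockdown was 0.05 (interval -0.07 to 0.16, adjusted p = 0.61), and knockdown cells stood 0.38 above non-senescent cells (adjusted p = 0.000236).

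ATP7B is the pump of the liver, and in these fibroblasts it averaged 7.44 ± 0.080 in knockdown cells, 7.36 ± 0.057 in senescent cells and 7.37 ± 0.12 in non-senescent cells. The arrays of all 3 groups overlapped. Its changes were -0.02 in senescence (interval -0.17 to 0.14, adjusted p = 0.903) and 0.08 with knockdown (interval -0.08 to 0.23, adjusted p = 0.499).

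CCS, the chaperone of SOD1, read 8.59, 8.60 and 8.61 on the knockdown arrays, 8.74, 8.57 and 8.60 on the senescent arrays and 8.56, 8.34 and 8.46 on the non-senescent arrays. Neither group with 4OHT overlapped with the non-senescent arrays, although the gaps were small. The difference was 0.18 in senescence (interval 0.04 to 0.33, adjusted p = 0.0557) and 0.15 between knockdown and non-senescent cells (adjusted p = 0.122), so neither was called. Without the first non-senescent array, which has the highest CCS value of its group, these became 0.24 (adjusted p = 0.0221) and 0.20 (adjusted p = 0.0472). In the other 8 of 9 cases of leaving out 1 array, neither was called (adjusted p up to 0.199 and 0.376). The change with knockdown was -0.04 (interval -0.18 to 0.11, adjusted p = 0.761).

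**Figure D2:**
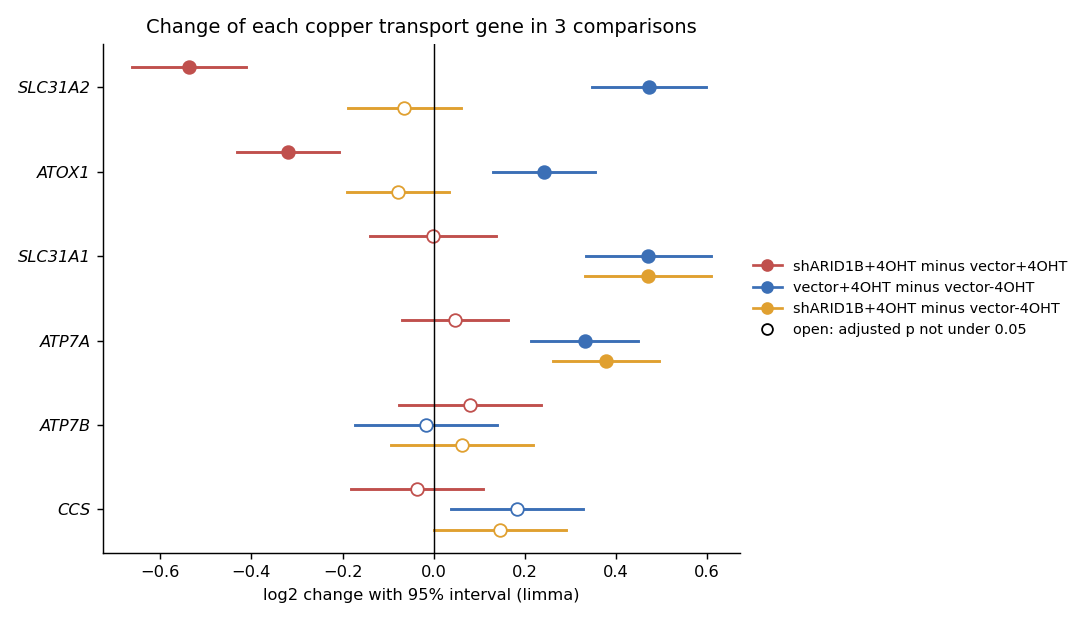
Log2 change (horizontal axis) of each gene with its 95% interval from limma in shARID1B+4OHT minus vector+4OHT, vector+4OHT minus vector-4OHT and shARID1B+4OHT minus vector-4OHT; filled points passed an adjusted p of 0.05 and open points did not. SLC31A2 and ATOX1 have filled points on both sides of 0, and SLC31A1 and ATP7A only to its right.

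Whether the SLC31 genes moved apart was tested within arrays, on the log2 difference SLC31A2 minus SLC31A1. In senescence this difference moved by 0.0021 (exact permutation test, 2-sided, p = 1), since both genes rose 1.39-fold. With knockdown it moved by -0.54, and with knockdown against non-senescent cells by -0.53. For both, the 3 arrays of one group did not overlap with those of the other, which gives the smallest p that 3 arrays against 3 allow (exact permutation p = 0.1, 0.15 after adjustment over the 3 comparisons). This test therefore could not pass the threshold.

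Over the 9 arrays, ATOX1 had a Pearson correlation of 0.95 with SLC31A2 and ranked 22 among 11670 genes with a mean above the median of probe sets. The other members were less alike, at 0.47 for CCS, 0.39 for SLC31A1, 0.26 for ATP7A and -0.39 for ATP7B. The 5 genes most like SLC31A2 were GOT1 (cytosolic aspartate aminotransferase, 0.99), MPG (a DNA repair glycosylase), DKK2 (a secreted modulator of Wnt signalling), COX8A (a subunit of cytochrome c oxidase) and NECAP2 (a protein of clathrin-coated vesicles), the last 4 at 0.97. These are descriptions over arrays that share their condition. The 5 genes were picked by their likeness to SLC31A2 on these same arrays, so a rise in senescence and a fall with knockdown follow from the choice. The adjusted p and calls given for them here are therefore no evidence of a shared pattern. DKK2 moved the most of the 5, by 0.75 in senescence (adjusted p = 4.13e-05) and -0.76 with knockdown (adjusted p = 0.000175). Its signal was dim in 2 groups, at 6.65 in knockdown cells and 6.66 in non-senescent cells, and it was ranked only through its mean of 7.41 in senescent cells, the group in which it is high. GOT1 moved by 0.20 (adjusted p = 0.00622) and -0.23 (adjusted p = 0.00732). MPG and NECAP2 had changes of 0.13 and 0.15 in senescence and of -0.14 each with knockdown. Of these 4 changes, the knockdown change of NECAP2 was not called (adjusted p = 0.0609), both calls of MPG were lost on leaving out any 1 of the 9 arrays (adjusted p up to 0.163), and the senescence call of NECAP2 was lost without 3 of them (up to 0.074).

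The stretches of 250 bases before the start of SLC31A1, ATP7A and ATOX1 are shown because these genes rose together in senescence and parted with knockdown. They come from RefSeq on GRCh38.p14, which had windows for 6 of the 7 members, SLC31A2 being the other. Capitals mark SP1 boxes (GGGCGG) and the core of the metal response element (TGCACNC or TGCGCNC), which the metal sensor MTF1 binds, on either strand.
SLC31A1, chr9:113221294-113221543, plus strand: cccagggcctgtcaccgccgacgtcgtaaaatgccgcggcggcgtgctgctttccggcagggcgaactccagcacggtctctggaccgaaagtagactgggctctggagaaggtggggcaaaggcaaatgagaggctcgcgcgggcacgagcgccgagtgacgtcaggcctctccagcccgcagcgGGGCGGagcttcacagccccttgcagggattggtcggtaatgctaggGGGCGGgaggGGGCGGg
ATP7A, chrX:77910443-77910692, plus strand: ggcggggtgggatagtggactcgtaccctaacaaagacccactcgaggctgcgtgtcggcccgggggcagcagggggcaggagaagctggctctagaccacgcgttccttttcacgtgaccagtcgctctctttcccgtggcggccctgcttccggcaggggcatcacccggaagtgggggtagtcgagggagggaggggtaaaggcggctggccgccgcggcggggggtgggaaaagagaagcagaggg
ATOX1, chr5:151758632-151758881, minus strand: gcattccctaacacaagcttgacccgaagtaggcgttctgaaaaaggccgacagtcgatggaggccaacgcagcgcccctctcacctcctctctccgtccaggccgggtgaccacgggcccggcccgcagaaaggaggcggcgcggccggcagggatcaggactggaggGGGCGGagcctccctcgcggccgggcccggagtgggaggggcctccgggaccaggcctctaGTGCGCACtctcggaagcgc
The stretches hold 68.0% G and C for SLC31A1, 67.2% for ATP7A and 70.0% for ATOX1. SLC31A1 had 3 SP1 boxes and no metal response core. ATP7A had neither, and 1 E-box (CACGTG). ATOX1 had 1 SP1 box, and near its start a stretch that reads as the core TGCGCNC on both strands, in 2 overlapping matches. The full window of 300 bases of ATOX1, which runs 50 bases past the start, held a further SP1 box and 1 antioxidant response core (TGACNNNGC). Metal response cores were also found in the windows of CCS (2 overlapping matches), of COX17 (1 in each of its 2 windows) and of ATP7B, whose change was not called in any comparison (1 and 2 matches in 2 of its 3 windows). Those 2 windows of ATP7B overlap, and the match in the first is also 1 of the 2 in the second. None of the 3 printed genes had an AP-1 site (TGANTCA). Of 35116 windows of 300 bases in the same table, 29.6% held either form of the metal response core, 45.0% an SP1 box, 7.26% an E-box, 7.71% an AP-1 site and 13.3% an antioxidant response core. These are matches of letters, not measured binding.

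SLC31A2 and SLC31A1 are close neighbours on chromosome 9, with FKBP15 the only measured gene between them. FKBP15, a protein of endosomes, starts 267 bases from SLC31A1 on the opposite strand, so that the window of SLC31A1 lies between both starts. It rose in senescence by 0.26 (adjusted p = 0.00487) and had a change of -0.15 with knockdown (adjusted p = 0.127), which became a call without the third senescent array (adjusted p = 0.0347). Of the 11 measured genes around and between the SLC31 genes, 2 were called higher in senescence and 0 lower. Over all genes the shares were 14.9% and 17.6%. The other riser was the splicing factor gene PRPF4, at 0.37 (adjusted p = 0.00037). With knockdown, 1 was called higher and 1 lower (9.63% and 6.09% over all genes). ZFP37, a zinc finger gene with dim signal in all groups, rose by 0.56 (adjusted p = 0.00222), and this call and the senescence call of FKBP15 were lost with the methods' t-test after Benjamini-Hochberg adjustment (adjusted p = 0.0794 and 0.0659). INIP, a subunit of a complex on single-stranded DNA, changed by -0.22 (adjusted p = 0.0109), a call lost with array medians subtracted (adjusted p = 0.0517). No neighbour was called both higher in senescence and lower with knockdown, as SLC31A2 was.

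**Figure D3:**
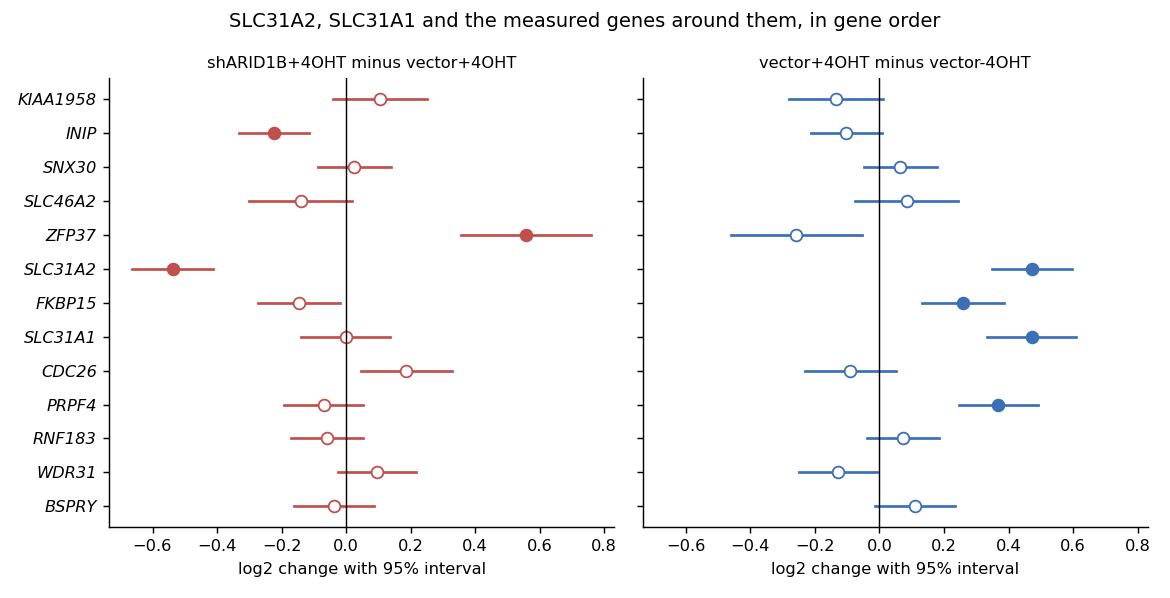
Log2 change with 95% interval (horizontal axis) of SLC31A2, SLC31A1 and 11 genes around them, in the order of the RefSeq gene table, for shARID1B+4OHT minus vector+4OHT (left) and vector+4OHT minus vector-4OHT (right); filled points passed an adjusted p of 0.05. SLC31A2 is the one gene with filled points of opposite sign in the panels.

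Genes that use, carry or buffer copper, or that encode partners of such proteins, were taken as 7 further lists of 66 genes. Of these, 64 were measured. In senescence 23 of the 64 were called higher and 12 lower, with knockdown 5 higher and 9 lower, and between knockdown and non-senescent cells 22 higher and 11 lower. Their median changes were 0.06, -0.06 and 0.01. Over all genes, 14.9% were called higher and 17.6% lower in senescence, and 9.63% and 6.09% with knockdown. Between knockdown and non-senescent cells the shares were 15.6% and 15.9%. The counts of each list below stand beside these shares, and the lists themselves were not tested. With the methods' t-test and Benjamini-Hochberg adjustment, the calls given below were lost for HEPH (adjusted p = 0.0763) and SCO2 (0.0845) in senescence and for COX6C (0.104) and LOXL4 (0.0622) with knockdown. So were the senescence calls of LOXL4, COA5, CCDC93 and MEMO1 and the knockdown calls of STEAP1 and STEAP2 (adjusted p between 0.0973 and 0.187).

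Metallothioneins, the small proteins that bind copper and zinc, rose almost without exception in senescence. Of 11 measured genes of the list, which includes their activator MTF1, 10 were called higher and 0 lower, and the median change was 0.48. Over all genes, 14.9% were called higher and 17.6% lower. The signal of MT4 and MT1H, which are among the 10, was dim in non-senescent cells (6.35 and 6.60). MT1X averaged 10.99 ± 0.011 in knockdown cells, 11.37 ± 0.041 in senescent cells and 10.23 ± 0.072 in non-senescent cells (SD), and no arrays of different groups overlapped. MT1X rose by 1.14 in senescence (2.2-fold, adjusted p = 4.73e-08) and changed by -0.38 with knockdown (adjusted p = 0.000739), the 1 call of the list in that comparison. All 11 changes with knockdown were below 0, with a median of -0.14, and up to 4 were called lower under other settings. MT1F rose by 0.72 (adjusted p = 9.77e-06) and MTF1 by 0.71 (adjusted p = 1.28e-05). Only MT3 was not called, at 0.11 (adjusted p = 0.264). The metallothionein genes are near-identical copies whose probes can share signal, so they are not separate measurements and each gene's own value is uncertain. In knockdown cells 10 of the 11 were still called higher than in non-senescent cells (15.6% over all genes).

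Of the enzymes that take copper in the secretory pathway, 1 of 15 was called higher in senescence and 6 lower. The shares over all genes were 14.9% and 17.6%. MOXD1, a monooxygenase related to dopamine beta-hydroxylase, averaged 8.74 ± 0.026 in knockdown cells, 9.24 ± 0.077 in senescent cells and 10.34 ± 0.081 in non-senescent cells (SD). It thus changed by -1.10 in senescence (adjusted p = 1.67e-07) and by a further -0.50 with knockdown (adjusted p = 0.000287). LOX, the first lysyl oxidase, followed the same order, at 11.67 ± 0.052 in knockdown cells, 12.21 ± 0.023 in senescent cells and 12.64 ± 0.051 in non-senescent cells, and its change with knockdown was -0.54 (adjusted p = 6.22e-05). LOXL1, a lysyl oxidase of elastic fibres, changed by -0.67 in senescence (adjusted p = 7.13e-06). HEPH, a ferroxidase, changed by -0.61 to a dim level (adjusted p = 0.00114). LOXL4 moved the other way in senescence, by 0.33 (adjusted p = 0.0173), which was lost without the second non-senescent array (adjusted p = 0.0752) or the second senescent array (adjusted p = 0.067), and changed by -0.59 with knockdown (adjusted p = 0.00167). LOXL3 rose by 0.40 with knockdown (adjusted p = 0.000547). In that comparison 1 of the 15 was called higher and 3 lower (9.63% and 6.09% over all genes).

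Both copper-dependent superoxide dismutases fell in senescence and rose with knockdown. SOD3, the extracellular enzyme, read 8.33, 8.11 and 8.16 on the knockdown arrays, 7.37, 7.71 and 7.56 on the senescent arrays and 8.31, 8.28 and 8.18 on the non-senescent arrays. The senescent arrays were below all others. Its changes were -0.71 in senescence (adjusted p = 8.59e-05) and 0.66 with knockdown (adjusted p = 0.000618). SOD1, the cytosolic enzyme that CCS loads, changed by -0.39 (adjusted p = 0.000166) and 0.24 (adjusted p = 0.01), and its knockdown call was lost without the second knockdown array (adjusted p = 0.0506). With the methods' t-test and Benjamini-Hochberg adjustment neither knockdown call was made (adjusted p = 0.0569 for SOD3 and 0.0567 for SOD1).

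Among the 14 nuclear-encoded subunits of cytochrome c oxidase, the mitochondrial copper enzyme, 4 were called higher in senescence and 0 lower. The shares over all genes were 14.9% and 17.6%. These subunits do not hold the copper of the enzyme, which sits in subunits encoded by mitochondrial DNA that were not listed. COX5B read 11.18, 11.13 and 11.15 on the knockdown arrays, 11.53, 11.67 and 11.52 on the senescent arrays and 11.08, 11.08 and 11.20 on the non-senescent arrays, so that only the senescent arrays stood apart. It rose by 0.45 in senescence (adjusted p = 0.000117) and changed by -0.42 with knockdown (adjusted p = 0.000762). COX6B1 changed by 0.38 (adjusted p = 0.000731) and -0.52 (adjusted p = 0.000323), and COX8A by 0.29 (adjusted p = 0.00184) and -0.39 (adjusted p = 0.000971). These were the 3 subunits called lower with knockdown. COX7B rose by 0.45 in senescence (adjusted p = 0.000605) and COX6C by 0.47 with knockdown (adjusted p = 0.00676), the 1 subunit called higher there.

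Of the 9 measured genes listed under mitochondrial copper delivery, 3 were called higher and 1 lower in senescence, and 0 in either direction with knockdown. Not all of the 9 are known to carry copper themselves. The shares over all genes were 14.9%, 17.6% and 15.7%. CMC2 rose by 0.34 (adjusted p = 0.000111), COA6 by 0.31 (adjusted p = 0.00441) and the copper chaperone SCO2 by 0.28 (adjusted p = 0.00635). COA5 changed by -0.20 (adjusted p = 0.034), a call that was lost without 1 array in 7 of 9 cases (adjusted p up to 0.111).

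Copper must be reduced before SLC31A1 takes it up, which STEAP2, STEAP3, STEAP4 and CYBRD1 can do. SLC11A2 (DMT1), an iron transporter, has been proposed as a second entry route. STEAP1 is listed as a relative of the other STEAP proteins, not as a copper reductase. Of these 6 genes, 3 were called higher and 1 lower in senescence (14.9% and 17.6% over all genes). STEAP1 rose by 0.92 (adjusted p = 0.000129), SLC11A2 by 0.49 (adjusted p = 0.000467) and STEAP3 by 0.27 (adjusted p = 0.000744), whereas CYBRD1 changed by -0.83 (adjusted p = 6.13e-07). With knockdown 1 was called higher and 2 lower, namely CYBRD1 at 0.23 (adjusted p = 0.0151), STEAP1 at -0.51 (adjusted p = 0.0148) and STEAP2 at -0.25 (adjusted p = 0.0324). These 3 calls were lost without 1 array in 3, 4 and 5 of 9 cases (adjusted p up to 0.0599, 0.0648 and 0.131).

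Of 7 genes for sorting of the pumps and for copper homeostasis, 2 were called higher and 2 lower in senescence, and 0 with knockdown. The shares over all genes were 14.9%, 17.6% and 15.7%. XIAP, a ubiquitin ligase that also binds copper, rose by 0.39 (adjusted p = 0.00453), which was lost with the methods' t-test after Benjamini-Hochberg adjustment (adjusted p = 0.103). MEMO1 rose by 0.21 (adjusted p = 0.0164), which was lost without the third non-senescent array (adjusted p = 0.0623) or the third senescent array (adjusted p = 0.061). VPS35L and CCDC93, of the complex that returns ATP7A from endosomes, changed by -0.53 (adjusted p = 9.7e-05) and -0.17 (adjusted p = 0.0396). The call of CCDC93 was lost without 1 array in 7 of 9 cases (adjusted p up to 0.137).

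**Figure D4:**
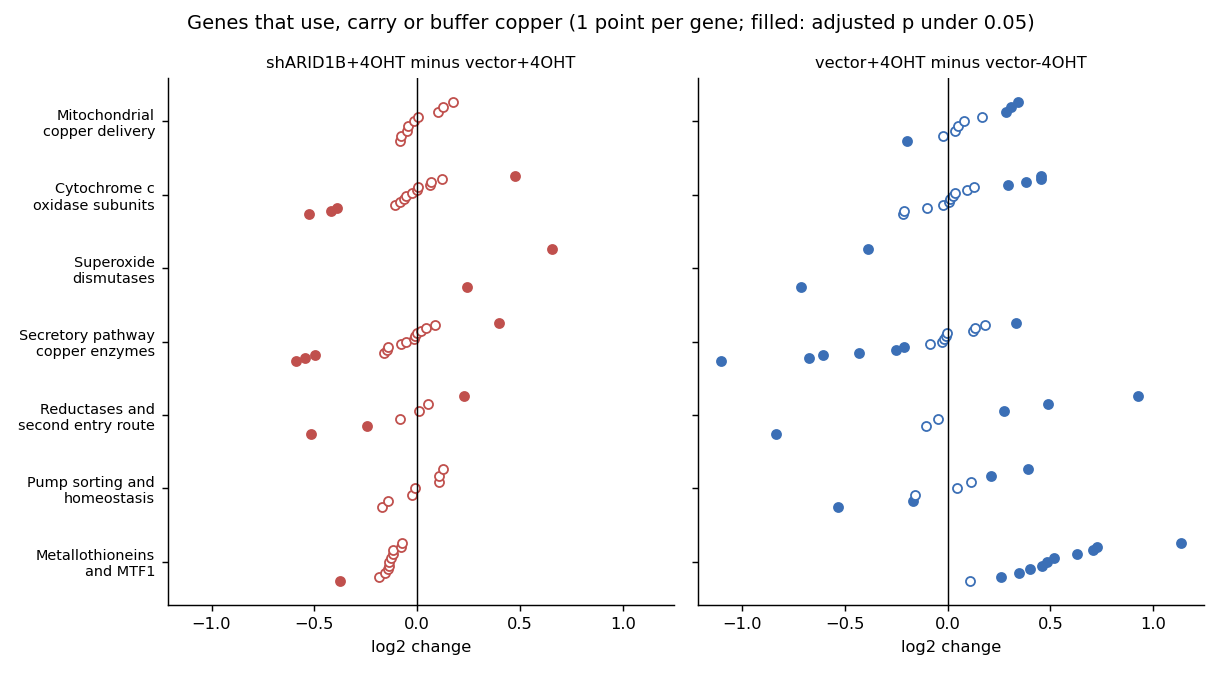
Log2 change (horizontal axis) of the 64 measured genes of 7 copper lists, 1 point per gene, for shARID1B+4OHT minus vector+4OHT (left) and vector+4OHT minus vector-4OHT (right); filled points passed an adjusted p of 0.05. In the right panel 10 of 11 points of the metallothionein list are filled and right of 0, and in the left panel 1 is filled, at -0.38.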

How the data were processed

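Total RNA was measured on 9 arrays, and the deposited table held 1 log2 value per probe set and array, made by the authors with RMA, which corrects background, quantile-normalises arrays and summarises probes. The submitters' processing notes also name oligo and limma, and versions and genome build are not given in the sources used here. Of 33297 probe sets, 19460 carried 1 gene symbol, 1754 several and 12083 none. For 769 genes with several probe sets, the one with the highest mean was kept, which left 18417 genes. The 9 arrays entered 1 limma 3.58.1 model (lmFit, eBayes; R 4.3.3) of group alone, and 2-sided tests were adjusted by Benjamini-Hochberg within each comparison. The fit had 6 residual degrees of freedom, and precision is limited by the number of arrays. The script was tested on simulated data. The members, gene lists, comparisons and alternatives were chosen with earlier results of these data known. Named genes were all members, ARID1B, the called genes with the largest changes (up to 3 per list, direction and comparison), the SLC31 neighbours (5 on each side and those between), and the 5 genes most like SLC31A2. Alternatives were a replicate block, dim genes left out, the 6 arrays compared alone, all or averaged probe sets, array medians subtracted, an intensity trend, the methods' t-test and leaving out each array.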

Additional observations from a re-analysis of the deposited data

Results flagged for a closer look

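Both probe sets that name COX17, the chaperone of mitochondrial copper delivery, also name POPDC2, so their signal belongs to neither gene alone, and they were used in no comparison of the members. Their signal was above that of both other groups in knockdown cells. The first averaged 9.39 ± 0.14 in knockdown cells, 8.70 ± 0.056 in senescent cells and 8.83 ± 0.21 in non-senescent cells (SD, n = 3 each). It was higher in knockdown cells by 0.69 than in senescent cells (limma over all probe sets, adjusted p = 0.00645) and by 0.55 than in non-senescent cells (adjusted p = 0.00704). The second averaged 9.97 ± 0.14 in knockdown cells, 9.28 ± 0.078 in senescent cells and 9.41 ± 0.28 in non-senescent cells, and was higher in knockdown cells by 0.69 than in senescent cells (adjusted p = 0.0161) and by 0.56 than in non-senescent cells (adjusted p = 0.0177). In senescence the changes were -0.14 (adjusted p = 0.483) and -0.13 (adjusted p = 0.627). Which gene the signal comes from was not tested.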

How the results depend on the processing

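The senescence and knockdown calls of SLC31A2 and ATOX1, and the senescence calls of SLC31A1 and ATP7A, held under all alternatives run. Leaving out 1 array gave 0.42 to 0.51 for SLC31A2 in senescence and -0.58 to -0.49 with knockdown, and the adjusted p under the other settings lay between 1.24e-05 and 0.0144 and between 2.64e-05 and 0.0196. CCS in senescence was also called with dim genes left out (adjusted p = 0.0351) and with array medians subtracted (0.0241, and 0.0319 against non-senescent cells in knockdown cells). Under 6 of the 9 settings other than leaving out an array, CCS stayed uncalled in senescence (adjusted p up to 0.228). Changes near 0 turned sign. With array medians subtracted, ATP7B in senescence was 0.018 and SLC31A1 with knockdown 0.024. Leaving out 1 array gave -0.078 to 0.045 for ATP7B in senescence, -0.027 to 0.015 for SLC31A1 and -0.071 to 0.014 for CCS with knockdown, and -0.073 to 0.050 for SLC31A2 minus SLC31A1 in senescence.

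Over all groups, same-numbered arrays showed no common deviation (correlations -0.26 to 0.32, 1 of 9 over 0.1). Senescent and knockdown arrays of the same number correlated at 0.32, 0.079 and 0.071, and those of different numbers at -0.32 to 0.27. With so few arrays per group, these values cannot decide whether the numbers pair the arrays. Of the 18 pairs with different numbers, 7 were over 0.1 (correlations -0.33 to 0.34). Whether arrays of different groups share a source under other numbers was not tested. A replicate block gave 5658 calls over all genes in senescence and 2498 with knockdown, against 5996 and 2895, and CCS in senescence was called (adjusted p = 0.0461). No other call of a member changed. The methods' t-test gave 3737 and 1446 after Benjamini-Hochberg, and unadjusted 1868 genes lower with knockdown against 1122. Without the second knockdown array, knockdown gave 1801. Lower calls there numbered 746 without the second senescent array and 698 without the third knockdown array. With array medians subtracted, 3452 genes were called higher and 2087 lower between knockdown and non-senescent cells, against 2867 and 2933. For the other named genes, 96 of 1060 values under an alternative lost their call, 6 gained one and 0 reversed. Of the 96, 55 came from leaving out 1 array and 16 from the adjusted t-test. The 1060 include results that were not called in the main fit and so had no call to lose. Groups of 3 arrays limit what could be called.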
